A study of Mus musculus with 6 samples.

Results

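The circadian clock genes described here are 10 genes of the molecular clock and its output: Clock, Arntl (also called Bmal1), Per1, Per2, Per3, Cry1, Cry2, Dbp, Nfil3 and Csnk1d. They were chosen by name, and every probe set of the array paired with 1 of these symbols was taken, whatever its suffix. This gave 19 probe sets for the 10 genes, out of 22690 probe sets and 12394 named genes on the array. Clock, Per2 and Dbp had 2 probe sets each, Per3 had 3 and Csnk1d had 5, while each of the other genes had 1.

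The circadian clock is a feedback loop of transcription. CLOCK and ARNTL form a dimer that binds E-boxes and activates the Per and Cry genes, and the PER and CRY proteins then return to the nucleus and repress that dimer until they are degraded. Nuclear receptors of the ROR and REV-ERB families act on ROR elements in Arntl and related genes, and DBP and NFIL3 compete for D-boxes in output genes. The adult retina holds a clock of its own, which sets daily rhythms of melatonin, dopamine and light sensitivity.

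RNA came from whole retinas of 6 mice at postnatal day 4 (P4), on a mixed C57/129 background. They were 3 littermate pairs, each of 1 wildtype mouse and 1 knockout of Nhlh2, a basic helix-loop-helix factor of developing neurons, and the replicate number names the pair. Each mouse was measured on its own Affymetrix mouse GeneChip array. How the Nhlh2 allele was made and the hour at which the eyes were taken were not given in the sources used here. In tissue RNA of this kind, fewer cells of a type and less RNA per cell cannot be told apart.

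The array of knockout replicate 2 stood apart from the other 5. Its median signal as deposited was 9.0, against 51.4 to 95.6 in the others, and the ratio of the 3′ to the 5′ control probe set of Actb was 274, against 1.38 to 1.56. Its highest correlation with any other array was 0.707, whereas that of each other array was at least 0.968. It was therefore left out of the tests below, leaving 3 wildtype and 2 knockout arrays, and its values are given beside theirs. Markers of photoreceptors (6 of 6 genes with a probe set), progenitors (6 of 6) and ganglion or amacrine cells (5 of 5) were above the array median in all 3 wildtype arrays. Lens genes were highest in wildtype replicate 1, where the summed signal of 7 of them was 11859, against 77.2 and 85.2 in the other wildtype arrays, 95.3 and 127 in knockout replicates 1 and 3, and 797 in knockout replicate 2. No probe set was listed for Nhlh2, so its loss could not be checked here.

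Promoters of the clock genes are shown because the loop is written in them: the factors above read short motifs near the start sites of one another's genes. RefSeq promoters of GRCm38.p6, from 250 bases before to 50 after each start site, were found for 8 of the 10 genes, in 12 promoters. Per2 and Csnk1d were not matched. Both strands were searched for the E-box CACGTG, the D-box TTATGTAA, the cAMP response element TGACGTCA and the ROR element, which is AGGTCA preceded by A, A, any base and T. The 4 promoters with a match are printed from 5′ to 3′ on the strand of the gene, in lower case with the matches in capitals. Cry1 lies at chr10:85185005-85185304 on the minus strand, Per1 at chr11:69098699-69098998 on the plus strand, Per3 at chr4:151044616-151044915 on the minus strand and Arntl at chr7:113207261-113207560 on the plus strand.
Cry1: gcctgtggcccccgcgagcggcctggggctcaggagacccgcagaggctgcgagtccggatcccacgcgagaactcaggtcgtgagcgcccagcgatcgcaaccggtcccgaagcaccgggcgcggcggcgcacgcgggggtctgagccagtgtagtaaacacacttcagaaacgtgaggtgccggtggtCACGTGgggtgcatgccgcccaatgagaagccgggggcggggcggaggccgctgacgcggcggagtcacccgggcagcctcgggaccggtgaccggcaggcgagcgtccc
Per1: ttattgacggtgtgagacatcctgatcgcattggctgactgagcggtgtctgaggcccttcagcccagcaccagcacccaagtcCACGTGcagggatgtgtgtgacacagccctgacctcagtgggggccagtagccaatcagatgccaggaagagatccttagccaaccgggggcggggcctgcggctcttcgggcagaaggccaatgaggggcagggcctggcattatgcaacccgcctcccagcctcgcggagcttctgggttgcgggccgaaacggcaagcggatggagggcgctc
Per3: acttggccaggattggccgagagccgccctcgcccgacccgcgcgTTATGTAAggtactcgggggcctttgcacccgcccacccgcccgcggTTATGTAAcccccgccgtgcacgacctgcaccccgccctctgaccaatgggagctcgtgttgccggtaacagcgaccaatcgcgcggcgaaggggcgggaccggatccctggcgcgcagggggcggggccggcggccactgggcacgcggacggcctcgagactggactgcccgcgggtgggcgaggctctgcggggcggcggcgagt
Arntl: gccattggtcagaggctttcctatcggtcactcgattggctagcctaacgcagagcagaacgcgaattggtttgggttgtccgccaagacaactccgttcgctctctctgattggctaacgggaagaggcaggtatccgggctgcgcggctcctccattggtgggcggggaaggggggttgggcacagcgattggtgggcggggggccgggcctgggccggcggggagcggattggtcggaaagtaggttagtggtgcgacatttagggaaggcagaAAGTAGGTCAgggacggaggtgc

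The E-box of the Cry1 promoter begins 60 bases before the start site and that of Per1 166 bases before it. Over all 32851 promoters of the table, 7.15% hold this E-box. Per3 carries the D-box at 2 places, 205 and 158 bases before the start site, a motif held by 0.938% of promoters. In Arntl the ROR element, held by 0.219% of promoters, lies at base 28 after the start site. No cAMP response element was found in the 12 windows, whilst 1.79% of all promoters have one. A match describes the letters in the window and not a bound site, and the second promoter of Per1, the other one of Arntl and those of Clock, Cry2, Dbp and Nfil3 held none of the motifs searched.

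In the P4 wildtype retina the 2 activators were well above the array median. Signals are MAS 5.0 signals scaled so that the trimmed mean of each array was 500, and a percentile is the rank of a probe set among all probe sets of its array that are not controls. A percentile also depends on how well the probes of a set bind, so the order of genes below is not an order of transcript amounts. Arntl, the partner of CLOCK and the gene whose loss alone stops the clock, had signals of 1540, 1672 and 1778 in wildtype replicates 1, 2 and 3, at percentiles of 89.8, 90.5 and 91.2. The knockout arrays had 1678 in replicate 1 and 1628 in replicate 3, both inside the wildtype range, with 46.7 in replicate 2. Clock, the second gene of the activating dimer, had 554, 553 and 695 in the wildtype arrays on its brighter probe set (1418660_at). The knockout values were 421, 384 and 675 in replicates 1, 2 and 3, so that replicate 3 lay within the wildtype range and replicate 1 below it. On the other probe set (1418659_at) Clock had 529.8, 561 and 495 in wildtype and 548, 17.5 and 336 in knockout mice, and here replicate 3 rather than replicate 1 was below the wildtype arrays.

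Of the repressors, the Cry genes had the higher percentiles and the Per genes lay near or below the array median. Cry1, which holds the dimer in its repressed state on DNA, had wildtype signals of 501, 617 and 284 and knockout signals of 649, 483 and 397. The groups overlapped, and the lowest value of all 6 arrays was that of wildtype replicate 3. Cry2, its paralogue and a weaker repressor, had 302, 374 and 362 in wildtype and 197, 481 and 325.5 in knockout mice. Knockout replicate 1 was below all wildtype arrays, whereas replicate 3 was among them and replicate 2 above them.

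The Per proteins bring the casein kinases into the repressive complex and set its timing. Per1, which also responds to light in the central clock, had wildtype signals of 162, 151 and 262 and knockout signals of 134, 17.5 and 314. Wildtype replicate 3 and knockout replicate 3, which are littermates, had the highest values, and Per1 exceeded the array median in 1 of 3 wildtype arrays. Per2, whose loss shortens the daily period, was below the median in all of them, with 122, 107 and 108 in wildtype and 123, 60.4 and 117 in knockout mice on its brighter probe set. Its other probe set (1417603_at) ran from 30.4 to 68.6 in wildtype mice and from 8.53 to 77.9 in knockout mice. Per3, the member of the family that is dispensable for the rhythm itself, had 81.5, 123 and 172 in wildtype and 125, 199 and 152 in knockout mice on its brightest probe set. The remaining 2 probe sets of Per3 had wildtype means of 21.2 ± 15.6 and 38.5 ± 12.1 (SD, n = 3).

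Dbp and Nfil3 act in opposite directions on D-boxes, DBP as an activator and NFIL3 as a repressor. Dbp, a direct E-box output of the loop, had wildtype signals of 360, 475 and 152 and knockout signals of 280, 380 and 333 (1438211_s_at). Wildtype replicate 3 was below the other 5 arrays, and the 3 knockout values fell between it and wildtype replicate 2. The second probe set of Dbp (1418174_at) had 125, 191 and 83.9 in the wildtype arrays, again lowest in replicate 3 and highest in replicate 2, and 109, 224 and 87.7 in the knockout arrays. Nfil3, which is driven by ROR elements and also directs immune cell fates, had 308, 236 and 221 in wildtype mice and 148, 306 and 171 in knockout mice. Knockout replicates 1 and 3 were both below every wildtype array, and replicate 2 was within the wildtype range. All of these signals but that of replicate 2 were near the array median. Percentiles ran from 55.4 to 61.2 in wildtype and were 47.4 and 52.1 in knockout replicates 1 and 3.

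Csnk1d encodes casein kinase 1 delta, which phosphorylates PER proteins and marks them for degradation. Its brightest probe set (1437690_x_at, whose suffix marks probes that may bind other transcripts) had 2588, 2234 and 2593 in wildtype and 2744, 3321 and 2177 in knockout mice, at percentiles from 92.9 to 95.2 over the 6 arrays. The other 4 probe sets had wildtype means of 821 ± 95.8 (1415825_s_at), 535 ± 194 (1418889_a_at), 780.5 ± 149 (1449932_at) and 930 ± 24.7 (1456727_a_at; SD, n = 3 for each). In all, 6 of the 10 genes were above the array median in all 3 wildtype arrays: Clock, Arntl, Cry1, Cry2, Nfil3 and Csnk1d. Dbp was above it in 2 of them, Per1 and Per3 in 1 and Per2 in none.

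**Figure D1:**
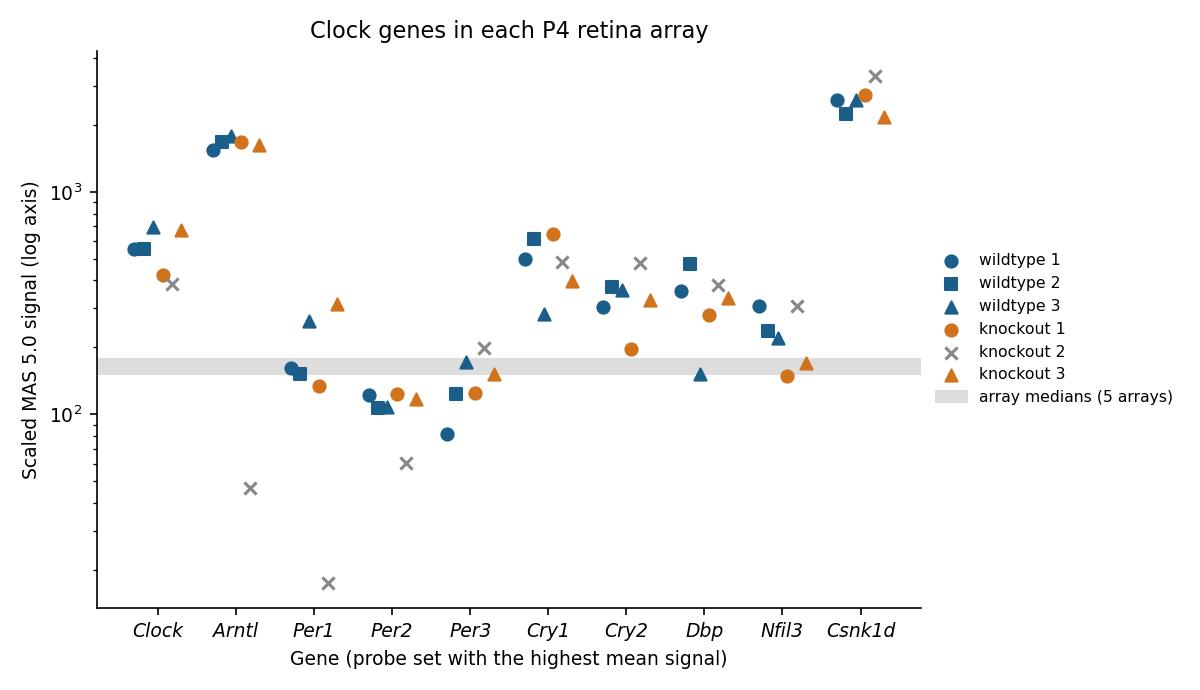
Scaled MAS 5.0 signal (log axis) of the brightest probe set of each of the 10 clock genes in the 6 P4 retina arrays, with 1 point per mouse and the range of the scaled medians of 5 arrays as a grey band. Arntl and Csnk1d lie far above the band, Per2 below it, and knockout replicate 2 (crosses) is low for Arntl (46.7) and Per1 (17.5).

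The clock genes differed widely in how much they varied among the 3 wildtype mice. The SD of log2 signal was 0.81 for Dbp, larger than that of 97.4% of the 11324 probe sets that passed the filter described below, and its highest wildtype signal was 3.13-fold the lowest. For Cry1 the SD was 0.56, larger than that of 91.3% of them, with a range of 2.17-fold. Clock (0.19), Cry2 (0.16), Csnk1d (0.12) and Arntl (0.10) were below the median SD over these probe sets, which was 0.23, and Nfil3 was close to it with 0.24. The brightest probe sets of Per1 and Per3, dimmer than these, had SDs of 0.40 and 0.48, and that of Per2 had 0.10. All of these SDs are of the brightest probe set of each gene. Those of the other Csnk1d probe sets ran from 0.04 (1456727_a_at) to 0.59 (1418889_a_at). The latter was larger than that of 92.5% of the 11324 probe sets.

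A clock gene driven through E-boxes peaks at another time of day than one driven through ROR elements, so the wildtype arrays were compared over a list of each kind. Cry1 was placed in the second list, though its promoter window above holds an E-box and no match to the ROR element. Nor did the windows of Dbp and Per3, in the first list, hold an E-box, or those of Clock and Nfil3, in the second, a ROR element. Of 11 E-box-driven genes with a probe set, 6 were highest in wildtype replicate 3, 4 in replicate 2 and 1 in replicate 1. The order depended on the dim genes, as of the 5 that passed the filter 3 were highest in replicate 2 and 2 in replicate 3. Per1, Per3, Tef and Usp2 were among those highest in replicate 3, whereas Dbp and Nr1d2 were among the 3 that were lowest in that array. Tef, a relative of DBP, had signals of 929, 860 and 1034 in wildtype replicates 1, 2 and 3, and the related factor Hlf had 213, 328 and 262. Nr1d2, a REV-ERB repressor, had 2379, 2977 and 2235, and Usp2, a deubiquitinase under clock control, had 135, 186 and 231. Of 5 genes of the opposite phase, 3 were highest in replicate 3, among them Arntl and Clock. Nfil3 was highest in replicate 1 and Cry1 in replicate 2. These orders are those of the brightest probe set of each gene. On another that passed the filter, Clock (495), Tef (36.6) and Hlf (170) were lowest in replicate 3, whereas Nr1d2 kept its order. Genes of the same list thus differed in which mouse was highest. No hour of collection was given, and whether the mice differed in it was not tested.

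**Figure D2:**
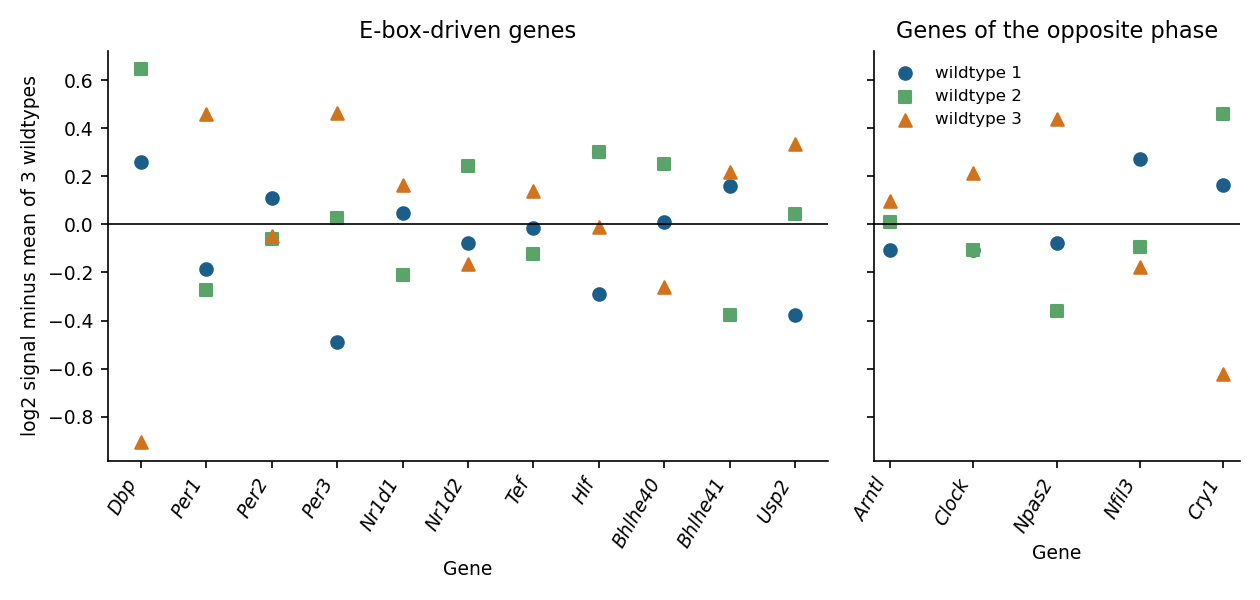
Deviation of log2 signal from the mean of the 3 wildtype P4 arrays for 11 E-box-driven genes (left) and 5 genes of the opposite phase (right). Each gene is shown on its brightest probe set, with 1 point per mouse. Wildtype replicate 3 (triangles) is the lowest array for Dbp and Cry1 and the highest for Per1, Per3, Usp2, Clock and Arntl.

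The comparison of knockout with wildtype mice asks whether the clock genes of the P4 retina differ in the absence of Nhlh2. A probe set was tested where its signal was above the array median in at least 3 of the 5 arrays, which 12 of the 19 clock gene probe sets were, from 7 of the 10 genes. The 3 Per genes did not pass, nor did the second probe set of Dbp. None of the 12 was called at an adjusted p under 0.05 (limma, Benjamini-Hochberg), as for 0% of all 11324 probe sets tested. At an unadjusted p under 0.05 there was 1 of 12, Nfil3, against 0.618% of all probe sets. With all 6 arrays 13 probe sets of clock genes were tested and 0 were called, beside 0% over 11610 probe sets. An unadjusted p under 0.05 was then reached by 0 of the 13, against 0.103% of all.

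Nfil3 was 0.62 lower in knockout mice on the log2 scale, with a standard error of 0.21 and a 95% interval from -1.13 to -0.11, and its adjusted p was 0.999 in limma. It was also the only 1 of the 12 probe sets whose 2 knockout values both lay on one side of the wildtype range. Over all probe sets tested, 10.8% had groups that did not overlap, so a count of 1 among 12 is near that share. With all 6 arrays the difference of Nfil3 was -0.33 (95% interval -1.21 to 0.55). Its difference ran from -0.71 to -0.48 when 1 of the 5 arrays was left out, and without wildtype replicate 1 or wildtype replicate 2 the unadjusted p under 0.05 was reached by 0 of the 12 probe sets.

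Cry2 had the next largest difference with -0.42 ± 0.25 (SE), and its interval ran from -1.03 to 0.19. Without knockout replicate 1 this was -0.08. Clock was at -0.16 ± 0.25 and -0.29 ± 0.24 on its 2 probe sets. Arntl was at -0.01 ± 0.17 with an interval from -0.43 to 0.41. With knockout replicate 2 included Arntl had -1.58 ± 1.26. Cry1 (0.18 ± 0.37) and Dbp (0.03 ± 0.45) had the widest errors of the 1-per-gene values, and without wildtype replicate 3 these were -0.13 and -0.42.

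The 5 probe sets of Csnk1d ran from -0.22 to 0.02 with 5 arrays. With all 6 arrays they ran from -1.61 to 0.34, and the brightest moved from -0.01 to 0.13. Of the genes that were not tested, Per1 had a difference of 0.14, Per2 of 0.09 and Per3 of 0.17 on their brightest probe sets. The median over the 10 clock genes was 0.01, and it was 0.0048 over 12393 genes with 1 probe set each. Of the 10 genes, 5 had a difference above 0 and 5 below it.

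**Figure D3:**
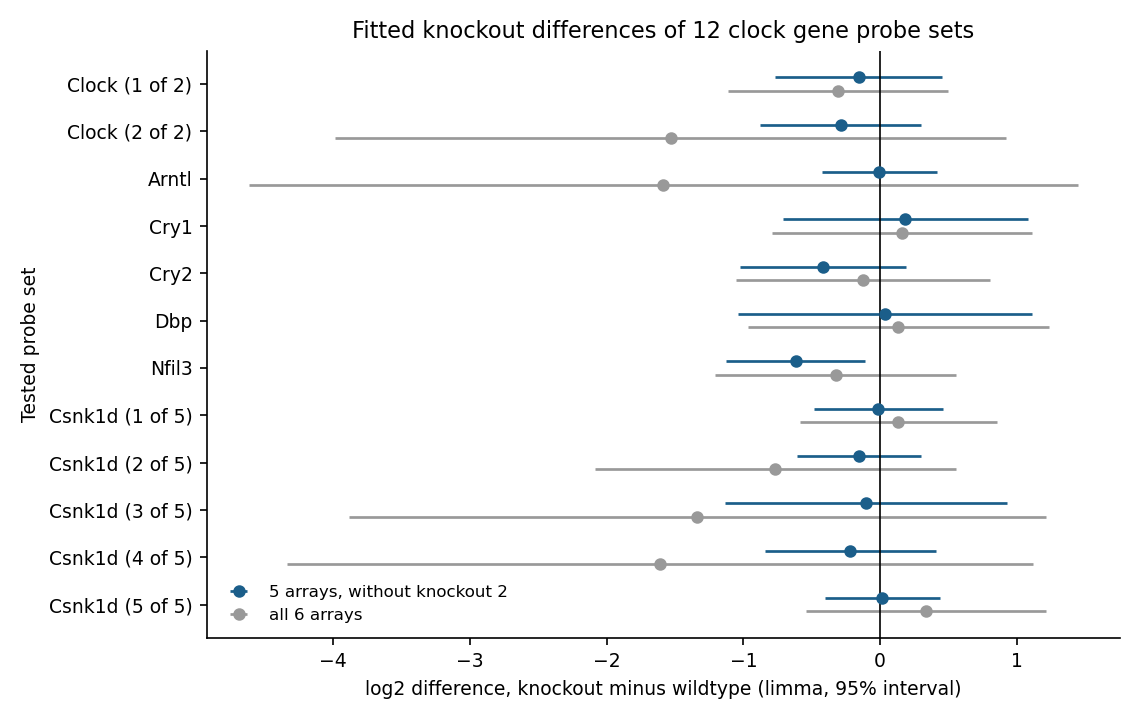
Difference in log2 signal, knockout minus wildtype, of the 12 tested clock gene probe sets, with 95% intervals from limma for 5 arrays (blue) and for all 6 (grey). With 5 arrays the interval of Nfil3 (-1.13 to -0.11) is the only one that does not include 0, and with all 6 arrays every interval includes 0.

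Differences within littermate pairs show the same values mouse by mouse. In pair 1 the knockout minus wildtype difference exceeded 1.5-fold in either direction for 1 of the 12 tested probe sets, against 3.16% of all. This was Nfil3, with a log2 difference of -0.98. Cry2 in pair 1 was at -0.58 and Clock at -0.38 on its brighter probe set, whilst Arntl was at 0.12 and Cry1 at 0.36. Lens genes differ in the same pair, where 1 of 7 was higher in the knockout mouse and Cryaa, a lens crystallin, had 5810 in the wildtype and 5.0 in the knockout array. Of the pigment epithelium genes, 1 of 6 was higher in the knockout mouse of this pair, with a median log2 difference of -0.60. The part of lens and pigment epithelium in the clock gene values was not tested.

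In pair 3 the count was also 1 of 12, beside 10.4% of all probe sets. This was Dbp, higher in the knockout mouse by 1.06 on the log2 scale, in the pair whose wildtype mouse had the lowest signal of all 6. The second probe set of Dbp, which was not tested, had 0.05 in that pair. Nfil3 was at -0.35 in pair 3, the same direction as in pair 1, and Cry1 at 0.46, likewise in the direction it had in pair 1. Clock was below 0 in both pairs on its brighter probe set (-0.38 and -0.04), and Cry2 as well (-0.58 and -0.14). Arntl, Per1, Per3, Dbp and Csnk1d had opposite signs in the pairs on their brightest probe sets.

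Pair 2 holds knockout replicate 2, and there 6 of the 12 probe sets were past 1.5-fold, against 74.9% of all. Probe sets of a single gene parted in this pair. The 5 of Csnk1d had log2 differences of 0.57, -1.81, -4.17, -4.31 and 0.94, whereas they lay between -0.22 and 0.15 in pair 1 and between -0.36 and 0.07 in pair 3. For Clock the 2 probe sets had -0.51 and -4.10. Arntl was at -4.75 and Nfil3 at 0.35, the opposite sign to its other pairs. Over the 10 genes, the median difference was -0.12, -0.33 and -0.08 in pairs 1, 2 and 3. It was -0.01, 0.14 and 0.03 over all genes, and -0.0047, -0.54 and 0.02 over genes whose probe set passed the filter. Of the 10 clock genes, 7 passed it.

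**Figure D4:**
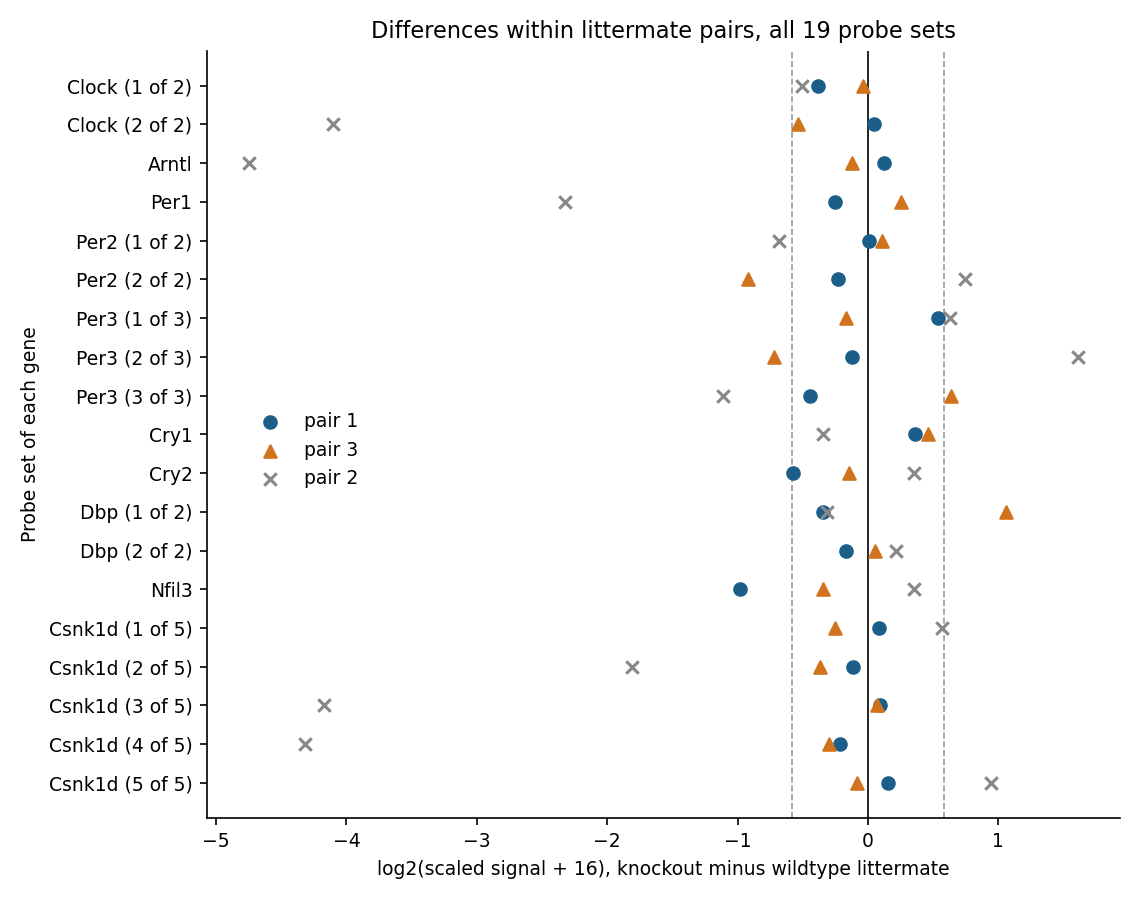
Difference in log2(scaled signal + 16) between each knockout mouse and its wildtype littermate for all 19 clock gene probe sets, with dashed lines at 1.5-fold and the brightest probe set of a gene numbered 1. Pairs 1 and 3 lie within or near the dashed lines for most probe sets, with Nfil3 at -0.98 in pair 1 and Dbp at 1.06 in pair 3, whereas pair 2 (crosses) reaches -4.75 for Arntl.

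The wider clock was described with 4 lists of other genes: further parts of the loop, its kinases, ligases and cofactors, its output genes, and genes of the retinal rhythm. Of 46 genes listed, 36 had a probe set, 23 of these passed the filter, and 0 were called in limma, with 0 at an unadjusted p under 0.05, against 0.618% of all probe sets. Of the 23, 1 had groups that did not overlap, where the share of all probe sets was 10.8%. This was Timeless, a replication fork protein that binds clock proteins, which had 240, 200.4 and 221 in wildtype and 263, 13.6 and 259.6 in knockout mice. Its difference over 5 arrays was 0.23 ± 0.18 (SE), the largest of the kinase, ligase and cofactor list. Csnk1e, the kinase closest to Csnk1d, had the smallest there with -0.08 ± 0.19. Other probe sets that passed were at -0.29 ± 0.31 for Csnk1e and 0.11 ± 0.20 for Timeless, whose groups overlapped on that probe set.

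Among the loop genes, 4 of 9 with a probe set passed the filter. Nr1d2 had a difference of -0.36 ± 0.24 and Cipc, which inhibits the CLOCK dimer, of 0.10 ± 0.20, though another probe set of Cipc that passed was at -0.25 ± 0.21. All 7 output genes passed. Usp2 was at 0.46 ± 0.26, Nampt, an enzyme of NAD synthesis under clock control, at -0.31 ± 0.31, Tef at -0.07 ± 0.18 and Hlf at -0.05 ± 0.23. Other probe sets that passed were at -1.05 ± 1.10 for Tef, -0.94 ± 1.21 for Nr1d2 and -0.07 ± 0.24 for Hlf.

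Only 2 of 10 genes of the retinal rhythm passed, the transcription factor Creb1 and the VIP receptor Vipr2. Creb1 had -0.77 ± 0.71 and Vipr2 -0.42 ± 0.40 (SE for each), both with the lowest of the 5 values in knockout replicate 3. A second probe set of Creb1 that passed had the opposite sign, 0.22 ± 0.53, and its lowest value in wildtype replicate 3. Aanat, the enzyme that sets the rhythm of melatonin synthesis, and Opn4, the melanopsin of light-sensitive ganglion cells, were among the 8 that did not pass. Aanat had 17.4, 48.3 and 17.7 in the wildtype arrays and 79.6, 130 and 23.5 in the knockout arrays, and the groups overlapped. Opn4 had 78.8, 104 and 64.0 in wildtype and 112, 119 and 107 in knockout mice. All 3 knockout values lay above the wildtype range, and its signal reached the array median in none of the 5 arrays tested. The brighter probe set of Adcyap1r1, another of the 8, also had all 3 knockout values above the wildtype range, whereas its other probe set did not. Groups of all 6 arrays did not overlap for 6.23% of the probe sets that passed the filter, which neither Opn4 nor Adcyap1r1 did. Of the 10 genes of this list, 5 had a difference above 0 and 5 below it. Aanat, Opn4 and Adcyap1r1 are named here after their values were seen.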

How the data were processed

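Retinal RNA of 6 mice was measured on Affymetrix mouse GeneChip arrays. The deposited values are linear intensities from the MAS 5.0 algorithm, 1 for each probe set of an array, as the authors and the submitters' processing notes state. Trimmed means of the arrays ran from 25.7 to 268, so each array was scaled here to a 2% trimmed mean of 500. With arrays no read depth applies, and their number limits the precision.

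Probe sets were named from the platform annotation (20393 with 1 symbol, 691 with several, 1606 not listed), checked against RefSeq, with 0 symbols updated, and 64 controls were left out. After 16 had been added, log2 values were fitted with limma 3.58.1 in R 4.3.3 (lmFit and eBayes), knockout against wildtype, with Benjamini-Hochberg adjustment over all probe sets tested. A gene with several probe sets is represented by the one with the highest mean over the 5 arrays. The fit was tested on simulated data. The members and gene lists were chosen with earlier results of these data known, as was the omission of knockout replicate 2.

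The text names all 10 clock genes, from each other list the genes with the largest and smallest difference among those that passed the filter, any called, and genes of the 2 phase lists that passed. The series design pairs the mice as littermates. Correlations of deviations from the group means were 0.13, -0.07 and 0.15 for pairs 1, 2 and 3. These means were taken over all 6 arrays, knockout replicate 2 included. The main fit has no pair term. P-values set each difference against the spread between these mice, with the variance of each probe set drawn towards that of all probe sets tested (eBayes). Alternatives covered scaling, constant, filter, arrays entered, array weights, intensity trend, pairs and leaving out each array.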

Additional observations from a re-analysis of the deposited data

How the results depend on the processing

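The count of clock gene probe sets called remained 0 under each of 15 alternatives, as did that of all probe sets (limma). At an unadjusted p under 0.05 there were 0 to 2 of the clock gene probe sets and 12 to 1178 of all. The replicate block, which enters the littermate pairs as a term, gave 0 called clock gene probe sets and changed no call. That fit had 1 residual degree of freedom with 5 arrays and 2 with all 6, against 3 in the main fit. Its lack of calls therefore says little about the pairing. The median difference of the 10 genes, 0.01 in the fit of 5 arrays, was -0.16 with all 6 arrays, -0.13 with the mean of each gene's probe sets and -0.25 with the signals as deposited, where the median of all probe sets was -0.26. It ran from -0.04 to 0.01 when 1 array was left out. The number of clock genes above a set percentile in all 3 wildtype arrays was 10 at the 25th and 2 at the 75th percentile, against 6 at the median, 4 with plain probe sets alone and 6 to 7 when 1 wildtype array was left out. Probe sets past 1.5-fold numbered 2 of 12 in pair 1 with a constant of 1 (3.74% of all probe sets) and 2 with the signals as deposited (3.41%), and 2 in pair 3 with the signals as deposited (9.53%). Groups did not overlap for 0 of 12 with all 6 arrays (6.23% of all) and for 4 with the signals as deposited (18.2%). The counts past 1.5-fold and without overlap were added under these settings after the data were seen.

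Several differences near 0 turned sign. With the signals as deposited, which lower the median of all probe sets by the shift above, all 5 genes above 0 did so: Cry1 (-0.0802), Dbp (-0.23), Per1 (-0.0987), Per2 (-0.13) and Per3 (-0.0666). So did, with array weights over all 6 arrays, Clock (0.0776), Cry1 (-0.25) and Dbp (-0.29). Csnk1d was at 0.13 with all 6 arrays, with or without the replicate block, while Dbp was at -0.15, Per2 at -0.22 and Per3 at -0.12 as the mean of their probe sets. When 1 array was left out, Clock ran from -0.488 to 0.17, Arntl from -0.0603 to 0.0422, Cry1 from -0.16 to 0.53, Per1 from -0.43 to 0.71, Per3 from -0.0735 to 0.40, Dbp from -0.42 to 0.36 and Csnk1d from -0.179 to 0.15. Nfil3 kept its sign under every alternative, from -0.79 with the signals as deposited to -0.33 with all 6 arrays, and so did Cry2. Of the untested genes, Per1 had -0.77 and Per2 -0.19 with all 6 arrays, against 0.14 and 0.09 with 5. The cause of these changes was not tested.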
